A study of Mus musculus with 36 samples.

Results

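The genes described here are 10 components of the Notch pathway in the embryonic mouse cortex: the receptors Notch1, Notch2 and Notch3, the ligands Dll1, Dll3, Jag1 and Jag2, the ligand regulator Mib1, and the receptor regulators Numb and Numbl. They were chosen by gene name. All 10 were found among the 55487 genes counted, and all 10 passed the filter on low counts in both crosses, so none was set aside.

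Notch receptors sit at the cell surface and are cut after they bind a ligand on a neighbouring cell. The freed intracellular domain enters the nucleus, joins Rbpj and switches on targets such as Hes1 and Hes5. In the developing cortex, radial glia with active Notch signalling stay progenitors, while their newborn daughters present the ligand Dll1. Mib1 is a ubiquitin ligase that lets ligand-bearing cells send the signal, and Numb and its relative Numbl are adaptor proteins that restrain Notch receptors through endocytosis.

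RNA was sequenced from 36 libraries of female cortex at embryonic day 14.5, in 12 groups of 3, and each pool held the cortices of 2 embryos of like genotype. In polysome fractionation a lysate is spun through a sucrose gradient (15 to 50% here, collected in 12 fractions), so that RNAs carrying a single ribosome (monosome) part from RNAs carrying several (polysome). The input was taken from the cleared lysate before the gradient, and the sources used here do not give which gradient fractions made up each sample. The study compared 2 crosses that alter Ddx3x, which lies on the X chromosome and encodes an RNA helicase with a role in translation.

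In the LoF cross, the control was Ddx3x lox/+ without Cre and the conditional heterozygote (cHet) was Emx1-Cre/+;Ddx3x lox/+. In the T532M cross, the control was Emx1-Cre/+ and the cHet was Emx1-Cre/+;Ddx3x-T532M lox/+. The lox-flanked allele was therefore present in both LoF genotypes, and Cre in both T532M genotypes. Emx1-Cre works in dorsal telencephalic progenitors and the cells they give rise to, and vascular, meningeal and other cells of the pools keep their alleles. Litters and days of the pools are not stated, so each p-value reflects only how far these libraries spread, and the 18 of a cross come from 6 pools. In such bulk libraries, fewer cells of a type and less RNA per cell cannot be told apart.

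Libraries held 38059093 to 46271375 counted read pairs in input, 36999365 to 49049947 in monosomes and 44214830 to 57935512 in polysomes. Levels are in CPM, read pairs per 1000000 after scaling of libraries with edgeR's TMM factors. Ddx3x stood at 2404 ± 272 CPM (SD, n = 3) in LoF control polysomes and 1929 ± 295 in LoF cHet polysomes (edgeR adjusted p = 1). In T532M polysomes it stood at 2927 ± 608 CPM in controls and 5079 ± 886 in cHet pools (edgeR adjusted p = 0.51). The sources used here do not say which part of Ddx3x is lox-flanked, so whole-gene counts check the labels only in part. Cortical neuron markers summed to 2180 to 3100 CPM in input and radial glia markers to 1500 to 1840, while Sox2 and Tubb3 were at 0 in every library because another gene on the same strand covers 100% of their exons. Markers of choroid plexus and cortical hem, 12 genes such as Ttr, summed to between 12.2 and 268 CPM in input, with LoF control pools 1 and 3 and T532M cHet pool 1 far above the others. These pools and LoF cHet pool 1 held the most Ttr RNA, and they are left out below where that moves a result.

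Translation starts of the genes are shown because the experiment reads ribosome loading. Each line gives 15 bases before the start codon and 9 bases from it, 5′ to 3′, with the start codon in capitals, from 1 principal coding transcript of each gene in the GENCODE M21 annotation of GRCm38. Mib1 is not shown.
Notch1: agctggcgagcaggcATGccacgg
Notch2: gctgcggccccgaagATGcccgct
Notch3: tcgtggccggccgccATGgggctg
Dll1: gcgtccagcggtaccATGggccgt
Dll3: ctgtcccccaaagcaATGgtctct
Jag1: gcgcgcggcgcagcgATGcggtcc
Jag2: ggggtcgaggcggcgATGcgggca
Numb: gttgtaaaagttaacATGaacaaa
Numbl: gcgcccgggccctggATGtcccgc

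A purine lies 3 bases before the start codon in 8 of the 10 genes, against 85.5% of the 14544 tested genes with a principal coding transcript. A G follows the start codon directly in 3 of the 10 (Notch3, Dll1 and Dll3), against 52% of those genes. Numbl and Mib1 had neither. Some of the related genes differed in their 5′ untranslated regions (5′ UTRs), and others were alike. Guanine and cytosine made up 53% of the Numb 5′ UTR and 81.2% of the Numbl 5′ UTR. The Jag1 5′ UTR reached 57.4% and the Jag2 5′ UTR 86.6%, which is higher than in 99.2% of these genes. The receptors were alike, at 76.5% for Notch1, 75.2% for Notch2 and 76.3% for Notch3. Dll1 stood at 59.8%, Dll3 at 52.6% and Mib1 at 79.3%. The part of these contents in the fraction values was not tested. Coding regions ran from 1758 bases in Dll3 to 7596 in Notch1, against a median of 1392.

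The genes lie on 6 autosomes, with GRCm38 coordinates as the count table gives them. Notch1 (ENSMUSG00000026923.15) spans chr2:26457903-26516663 on the minus strand, and Jag1 spans chr2:137081456-137116644 on the minus strand. Notch2 spans chr3:98013527-98150361 on the plus strand. Notch3 spans chr17:32120820-32166852 and Dll1 spans chr17:15367354-15376872, both on the minus strand. Dll3 spans chr7:28293553-28302238 on the minus strand, and Numbl spans chr7:27258433-27282144 on the plus strand. Jag2 spans chr12:112907819-112929776 and Numb spans chr12:83794034-83921934, both on the minus strand. Mib1 lies on chromosome 18, over 93157 bases. Reads were counted over these whole spans, introns included. Another gene on the same strand, Gm44641, covers 322 of the 2760 bases of the Numbl transcript, and Gm42819 and Gm42820 lie within the Notch2 span with 541 of 10500 transcript bases inside them. Over all annotated exons of Numbl, 3609 of 8673 bases (41.6%) lie in Gm44641. In all, 6 of the 10 genes hold another same-strand gene within their span (Notch1, Jag2, Mib1 and Numb besides these), where no exon of theirs is covered. Read pairs in such overlaps belong to more than 1 gene, so the levels of these genes, and of Numbl and Notch2 in their exons, may be too low.

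**Figure D1:**
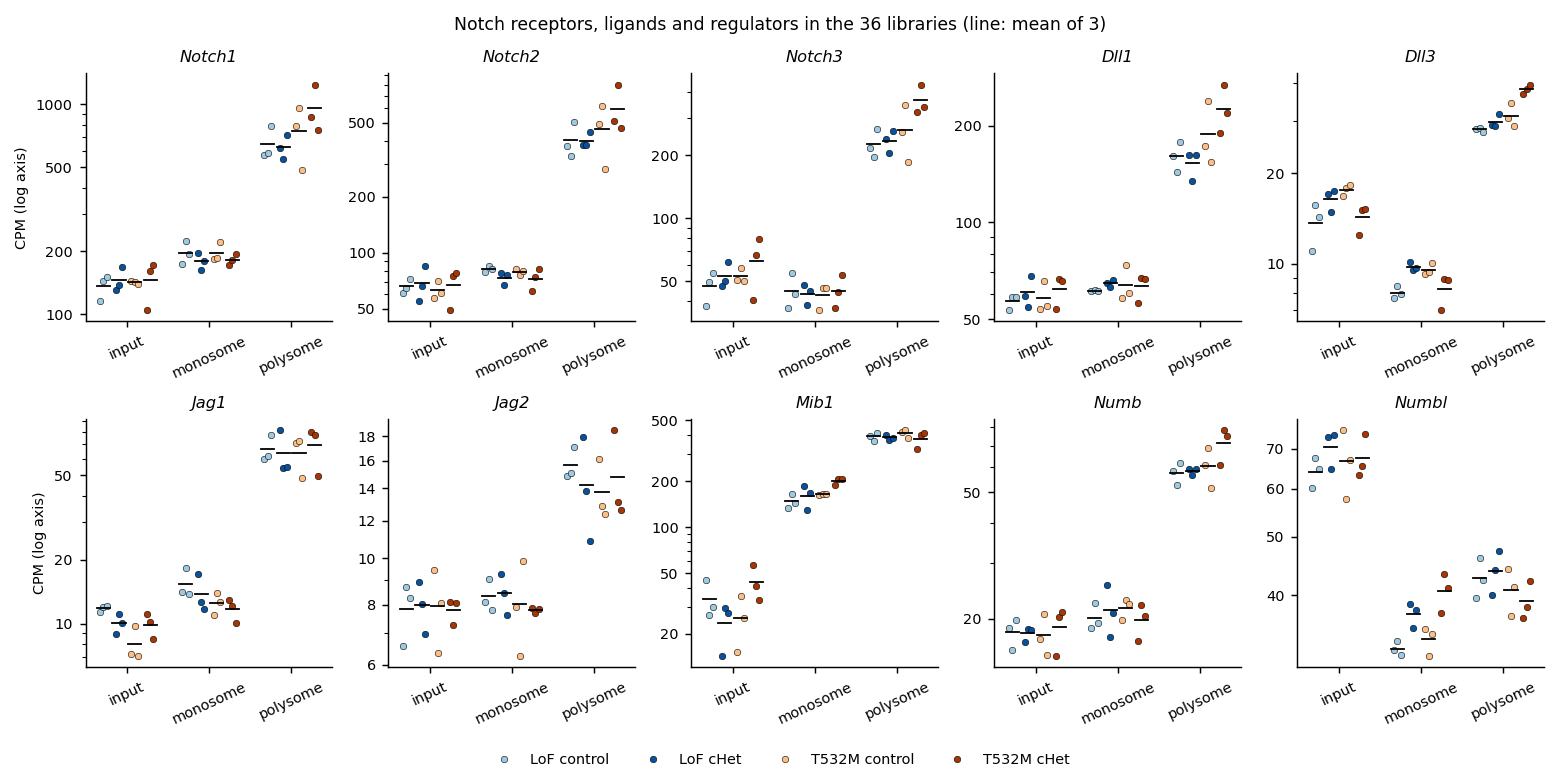
Level of each gene in CPM (log axis) in all 36 libraries, by fraction on the x axis. Colours give cross and genotype, points are libraries and lines are means of 3. Polysome points lie above input points for every gene except Numbl.

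Notch1 had the highest mean level per length of the members and Jag2 the lowest. Levels here are polysome CPM divided by the kilobases of the principal transcript, as mean ± SD of 3 control pools. Read pairs in introns count towards these levels, while introns are not part of that length. In the LoF cross Notch1 stood at 68.3 ± 12.8 CPM per kb and Dll1 at 45 ± 4.8, with ranges (60.4 to 82.9 and 40.2 to 49.7) that do not overlap. Notch2 (38.5 ± 8.75) and Mib1 (38.5 ± 2.3) followed, and the Notch2 range of 31.5 to 48.3 overlaps those of Dll1 and Mib1. Notch3 stood at 28.3 ± 4.57, with a range that overlaps that of Notch2.

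Numb (16.2 ± 1.3) and Numbl (15.5 ± 1.18) were at like levels per kb in LoF control polysomes, with ranges of 14.9 to 17.4 and 14.3 to 16.7. Jag1 stood at 11.8 ± 1.72 and Dll3 at 10.7 ± 0.174, again with overlapping ranges. Jag2 was apart from all the others at 3.07 ± 0.235. In T532M controls the order was nearly the same, from 78.2 ± 25 CPM per kb for Notch1 to 2.7 ± 0.4 for Jag2. Dll3 (11.9 ± 1.06) and Jag1 (11.4 ± 2.41) traded places within their spread. The T532M range of Notch1 (51.1 to 101) overlapped those of Dll1 (43 to 67) and Notch2 (26.8 to 59).

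The first comparison asked how these mRNAs were spread over the fractions in control cortex. All 10 genes were called higher in polysomes than in monosomes in both crosses (adjusted p under 0.05 over all genes tested, edgeR). Over all genes tested, 36.4% were called higher and 44.9% lower in the LoF cross, and 36% higher and 43.9% lower in the T532M cross. The members' median log2 fold change was 1.62 in the LoF cross and 1.63 in the T532M cross, beside a median of -0.31 over all genes in both. With library totals alone in place of TMM, the all-gene medians fell to -1.12 and -1.28, and then 8 of 10 (LoF) and 7 of 10 (T532M) were called higher and Numbl was called lower. Of all calls, 44.7% (LoF) and 45.1% (T532M) were higher with TMM, against 28.7% and 25.8% with totals alone, so fold changes are to be read against the all-gene median. Comparisons with input and with monosomes share the polysome libraries.

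Against input, 9 of 10 were called higher in polysomes and Numbl was called lower in both crosses. Over all genes, 36.5% were called higher and 42.8% lower in the LoF cross, and 36.6% higher and 42.4% lower in the T532M cross. The members' medians were 1.95 and 2.04, beside all-gene medians of -0.27 and -0.26. With totals alone, 7 of 10 were still called higher against input in each cross and Numbl lower.

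Among the receptors, Notch1, which is expressed in cortical radial glia, rose from monosomes to polysomes in every control comparison. Notch1 in LoF controls had 116, 143 and 150 CPM in input, 174, 223 and 193 in monosomes, and 573, 584 and 787 in polysomes. All 3 polysome libraries lay far above all others, and monosomes lay above input. The log2 fold change of Notch1 over monosomes was 1.72 ± 0.16 (SE, adjusted p = 4.75e-09) in LoF controls and 1.92 ± 0.23 (adjusted p = 3.69e-07) in T532M controls.

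Notch2 and Notch3 rose further than Notch1. Notch2 in LoF controls had 78.8, 85.2 and 81.5 CPM in monosomes and 374, 331 and 507 in polysomes, a log2 fold change of 2.30 ± 0.16 (adjusted p = 1.08e-10). In T532M controls the change of Notch2 was 2.55 ± 0.26. Notch3, which pericytes and other mural cells also express, had 37.1, 54.4 and 43.1 CPM in LoF control monosomes and 217, 196 and 267 in polysomes. Its log2 fold change was 2.34 ± 0.17 (adjusted p = 1.96e-10), and 2.62 ± 0.24 in T532M controls. Polysome and monosome values of these receptors did not overlap. Of 8 pericyte and mural markers, 6 were called higher and 0 lower in the same comparison. They summed to 222 to 333 CPM in LoF control polysomes and 44.8 to 49.6 in monosomes, and their part in Notch3 was not tested.

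Among the ligands, Dll1, the main Delta ligand of newborn cortical cells, had nearly the same value in the 3 LoF control monosome libraries. Dll1 had 53.3, 58.6 and 58.6 CPM in input, 61.2, 61.4 and 61.2 in monosomes, and 161, 144 and 178 in polysomes. Input and monosomes thus lay close together and polysomes apart. The log2 fold change over monosomes was 1.39 ± 0.11 (adjusted p = 4.99e-10), and 1.56 ± 0.17 in T532M controls.

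Dll3, a divergent Delta protein that acts within the cell rather than as an activating ligand, had another order of fractions. Dll3 in LoF controls had 11, 15.7 and 14.3 CPM in input, 7.70, 8.41 and 7.91 in monosomes, and 28.2, 28.4 and 27.5 in polysomes. Monosomes were lowest and input lay between, with no overlap of the 3 fractions. The log2 fold change of Dll3 was 1.81 ± 0.12 over monosomes (adjusted p = 3.47e-11) and 1.04 ± 0.12 over input (adjusted p = 9.32e-08). In T532M controls Dll3 changed by 1.70 over monosomes and by 0.82 over input, the latter turning to -0.11 with totals alone. In LoF controls the change over input was 0.19 and not called with totals alone.

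Jag1 and Jag2 are the Jagged ligands of the family. Jag1 in LoF controls had 14.2, 18.3 and 13.9 CPM in monosomes and 59.8, 61.6 and 77.3 in polysomes, which did not overlap. Its log2 fold change was 2.10 ± 0.18 (adjusted p = 1.29e-09), and 2.35 ± 0.20 in T532M controls. Jag1 is also an arterial and mural ligand. Of 10 endothelial markers, 8 were called higher and 2 lower in polysomes. They summed to 421 to 731 CPM in LoF control polysomes and 66.1 to 77 in monosomes, and their part in Jag1 was not tested.

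Jag2 rose less. Jag2 in LoF controls had 8.11, 9.08 and 7.80 CPM in monosomes and 14.9, 15.1 and 17.1 in polysomes, a log2 fold change of 0.91 ± 0.16 (adjusted p = 3.57e-05). With totals alone the change was 0.10 and not called. In T532M controls Jag2 changed by 0.78 ± 0.18 over monosomes (adjusted p = 0.000821), where the direction turned to -0.20 with totals alone, and by 0.79 over input, which turned to -0.14. Relative to the all-gene median, Jag2 was 1.22 higher in the LoF cross and 1.09 higher in the T532M cross.

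Mib1, the ubiquitin ligase, climbed in steps from input to monosomes to polysomes. Mib1 in LoF controls had 45.3, 26.4 and 30.1 CPM in input, 134, 164 and 143 in monosomes, and 397, 369 and 416 in polysomes. No values of different fractions overlapped. Over input its log2 fold change was 3.54 ± 0.24 in LoF controls (adjusted p = 4.8e-11) and 4.03 ± 0.24 in T532M controls (adjusted p = 2.89e-11), the largest of the 10 in both. These values are above 96.1% and 96.3% of all genes tested. Over monosomes the change of Mib1 was 1.42 ± 0.22 and 1.33 ± 0.22, and with totals alone it was no longer called in the T532M cross.

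Numb and Numbl, 2 related adaptors with coding regions of nearly equal length (1782 and 1815 bases), were spread differently over the fractions. Numb in LoF controls had 18.7, 16 and 19.9 CPM in input, 18.7, 22.4 and 19.5 in monosomes, and 58.3, 52.8 and 61.9 in polysomes. Numbl in LoF controls had 60.3, 67.5 and 64.7 CPM in input, 32.5, 33.6 and 31.7 in monosomes, and 39.6, 46.1 and 42.4 in polysomes. Numb was thus highest in polysomes, and Numbl was highest in input and lowest in monosomes, with no overlap between the fractions of Numbl. In T532M controls Numb had 19.9, 22.9 and 22.3 CPM in monosomes and 61.1, 68.6 and 51.6 in polysomes. Numbl there had 35.1, 31.7 and 34.4 CPM in monosomes and 44.2, 36.9 and 41.2 in polysomes, a narrow gap without overlap.

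The log2 fold change of Numb over monosomes was 1.51 ± 0.13 (adjusted p = 1.41e-09) in LoF controls and 1.48 ± 0.15 in T532M controls. For Numbl it was 0.39 ± 0.10 (adjusted p = 0.00108) and 0.27 ± 0.11 (adjusted p = 0.0327), and with totals alone it turned to -0.42 and -0.70. The T532M call of Numbl was lost without control pool 1 (adjusted p = 0.0705), without control pool 3 (0.104), without cHet pool 2 (0.0503) and with no filter on low counts (0.106). Over input Numbl fell by 0.59 (adjusted p = 1.54e-05) and by 0.71 (adjusted p = 1.23e-05), which is 0.31 and 0.45 below the all-gene median.

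**Figure D2:**
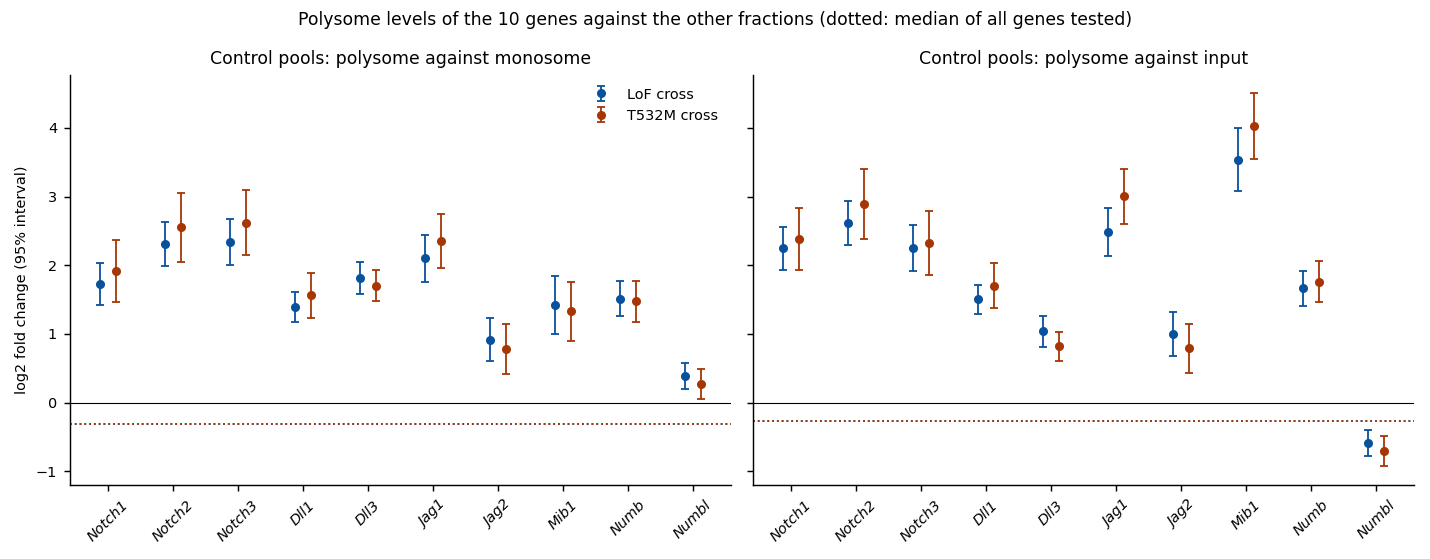
Log2 fold change of polysome over monosome (left) and over input (right) in control pools of both crosses, with 95% intervals (1.96 SE), 1 pair of points a gene. Dotted lines are the medians of all genes tested. All points lie above those medians except Numbl over input. With library totals alone Numbl (both crosses) and Jag2 (T532M) turn negative over monosomes, and Dll3 and Jag2 (T532M) over input.

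Ratios of 2 members within a library do not depend on scaling between libraries, and they were compared over the 6 control pools of both crosses. Of the 10 comparisons (5 pairs, chosen with their values known), 9 passed an exact two-sided permutation test at an adjusted p under 0.05. The smallest p that 6 against 6 libraries allow is 0.00216. The adjustment covers only these 10 comparisons, so the p-values describe pairs picked with their values known and are no independent support. Fractions of a pool may share a lysate, and this test uses neither that nor the cross.

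The ratio of Numb to Numbl was higher in polysomes than in monosomes by 1.17 log2 units (exact permutation p = 0.00216, adjusted 0.0027), by 1.13 in the LoF and 1.20 in the T532M controls. Against input it was higher by 2.36. The ratio of Jag1 to Jag2 was higher in polysomes by 1.37 over monosomes and by 1.84 over input, each with the same exact permutation p and no overlap of the 6 libraries with the other 6. The cHet pools gave 1.56 for Numb to Numbl and 1.55 for Jag1 to Jag2 over monosomes, again without overlap.

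Receptor ratios also shifted. Notch2 to Notch1 was higher in polysomes than in monosomes by 0.59 and Notch3 to Notch1 by 0.67, both without overlap (exact permutation p = 0.00216, adjusted 0.0027). Against input, Notch2 to Notch1 was 0.42 higher, while Notch3 to Notch1 was -0.01 (exact permutation p = 0.803). The ratio of Dll1 to Dll3 was 0.29 lower in polysomes than in monosomes (difference -0.29, exact permutation p = 0.0195, adjusted 0.0217), with overlapping values, and 0.66 higher than in input.

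**Figure D3:**
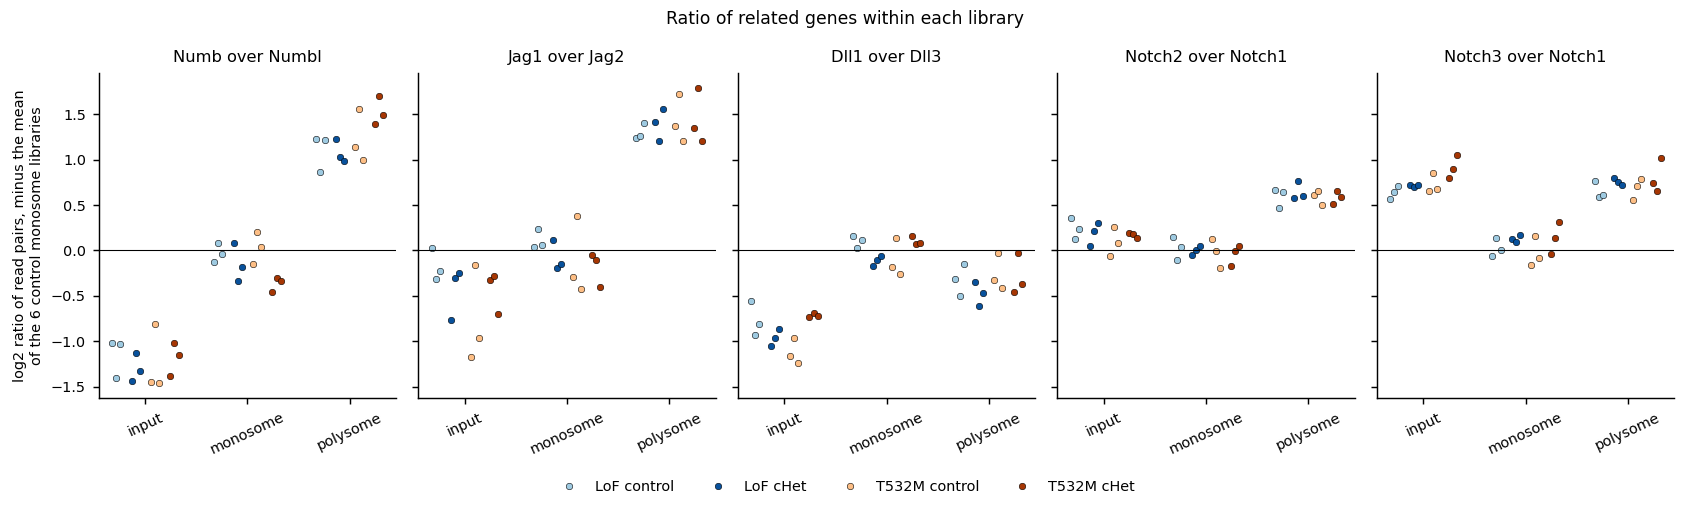
Log2 ratio of read pairs of 2 related genes within each of the 36 libraries, minus the mean of the 6 control monosome libraries of that pair. Polysome points of Numb over Numbl and Jag1 over Jag2 lie above 0 in all 12 libraries, and those of Dll1 over Dll3 lie at or below 0.

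Across all genes the polysome level relative to monosomes was higher the longer the coding region, and the receptors have the longest coding regions of the 10. In LoF controls the median log2 fold change was -0.76 for the 7877 genes with coding regions under 1500 bases and 0.85 for the 3634 genes from 1500 to under 2500 bases. It was 1.65 for the 2324 genes from 2500 to under 5000 bases and 1.84 for the 647 genes of 5000 bases or more. Among genes of their own length class, Notch1 was above 45.7%, Notch2 above 66% and Notch3 above 67.4%.

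Within the class from 1500 to under 2500 bases, Dll3 was above 71%, Numb above 64.6%, Dll1 above 61.9% and Numbl above 39.2% in LoF controls. In the class from 2500 to under 5000 bases, Jag1 was above 63%, Mib1 above 44.2% and Jag2 above 30.8%. T532M controls gave like positions, from 28.5% for Jag2 to 72.6% for Notch3. Over all coding genes regardless of length, Notch1, Notch2 and Notch3 were above 78.3%, 86.7% and 87.2% in LoF controls. Their positions were thus lower within their length class than among all coding genes.

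The rest of the pathway was read from 7 lists with 46 genes, all of which passed the filter. In LoF controls 23 were called higher and 17 lower in polysomes than in monosomes, with a median of 0.39, and in T532M controls 24 and 18, with a median of 0.44. With totals alone 16 were higher and 23 lower (LoF) and 15 and 24 (T532M). Against input, 21 were higher and 19 lower in the LoF cross, and 21 and 20 in the T532M cross.

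Values below are log2 fold changes over monosomes in LoF controls. Among the other receptors and ligands, 4 of 5 rose and 1 fell in both crosses, and 3 rose and 1 fell with totals alone. Dner, a neuronal Notch ligand, changed by 4.84, and Dll4, an endothelial ligand, by 2.67. Among 9 genes of receptor cleavage, 5 rose in each cross and 2 (LoF) or 3 (T532M) fell, and 4 rose and 4 fell with totals alone. The protease Adam10 changed by 2.65 and the gamma-secretase subunit Ncstn by 2.58, whereas Psenen, a small subunit of the same enzyme, changed by -2.08.

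Of 5 glycosylation genes, only the fucosyltransferase Pofut1 rose (1.36) and 4 fell in both crosses under each scaling, among them the Fringe genes Mfng (-2.93) and Rfng (-1.87). Of 8 genes of receptor trafficking and turnover, 6 rose and 2 fell in both crosses, against 4 and 3 (LoF) or 3 and 3 (T532M) with totals alone. Nedd4, a ubiquitin ligase, changed by 4.05. Of 8 genes of the nuclear complex, 5 rose and 1, Kat2b, fell (-1.64) in both crosses, against 3 and 3 with totals alone, while Snw1 changed by 2.93 and the acetyltransferase Ep300 by 1.73. Of 5 genes of ligand ubiquitination and endocytosis, 2 rose and 2 fell in both crosses, against 1 and 3 (LoF) or 1 and 4 (T532M) with totals alone. Mib2, the relative of Mib1, changed by 2.39 and Epn1, an endocytic adaptor, by -1.60.

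Most of the 6 transcriptional targets of the pathway were lower in polysomes than in monosomes. Lower calls with TMM made up 44.9% (LoF) and 43.9% (T532M) of all genes tested. The part of coding length in the targets was not tested. In both crosses 5 of 6 fell under each scaling, with Nrarp at -2.26, Hes5 at -1.86, Hey2 at -1.24 and Hes1 at -0.995 in LoF controls. Heyl, the remaining target, named after its values were seen, was at 0.41 in LoF controls, not called, and rose by 0.53 in T532M controls, and with totals alone it was at -0.40 and -0.45, not called.

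The second comparison asked whether the Ddx3x genotypes changed these genes within a fraction. None of the 10 was called in any of the 6 comparisons of cHet with control, by edgeR or by DESeq2. In the LoF cross the unadjusted p was under 0.05 for 2 members in input, 1 in monosomes and 0 in polysomes, against 10.8%, 4.2% and 3.23% of all genes. In the T532M cross it was under 0.05 for 2 in input, 1 in monosomes and 1 in polysomes, against 10.7%, 11.8% and 7.92% of all genes. Over all genes, the share called after adjustment was 0% in LoF input, 0.0108% in LoF monosomes and 0% in LoF polysomes, and 0.00548% in T532M input, 1.03% in T532M monosomes and 0% in T532M polysomes.

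The values of the 3 cHet and 3 control libraries did not overlap for 1 member in LoF input (Jag1), 4 in LoF monosomes (Dll1, Dll3, Numbl and Notch2) and 1 in LoF polysomes (Dll3). Over all genes the share without overlap was 11.3%, 10.5% and 6.71%. In the T532M cross it was 1 member in input (Dll3), 3 in monosomes (Dll3, Mib1 and Numbl) and 1 in polysomes (Dll3), against 13.3%, 21.6% and 9.63% of all genes.

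**Figure D4:**
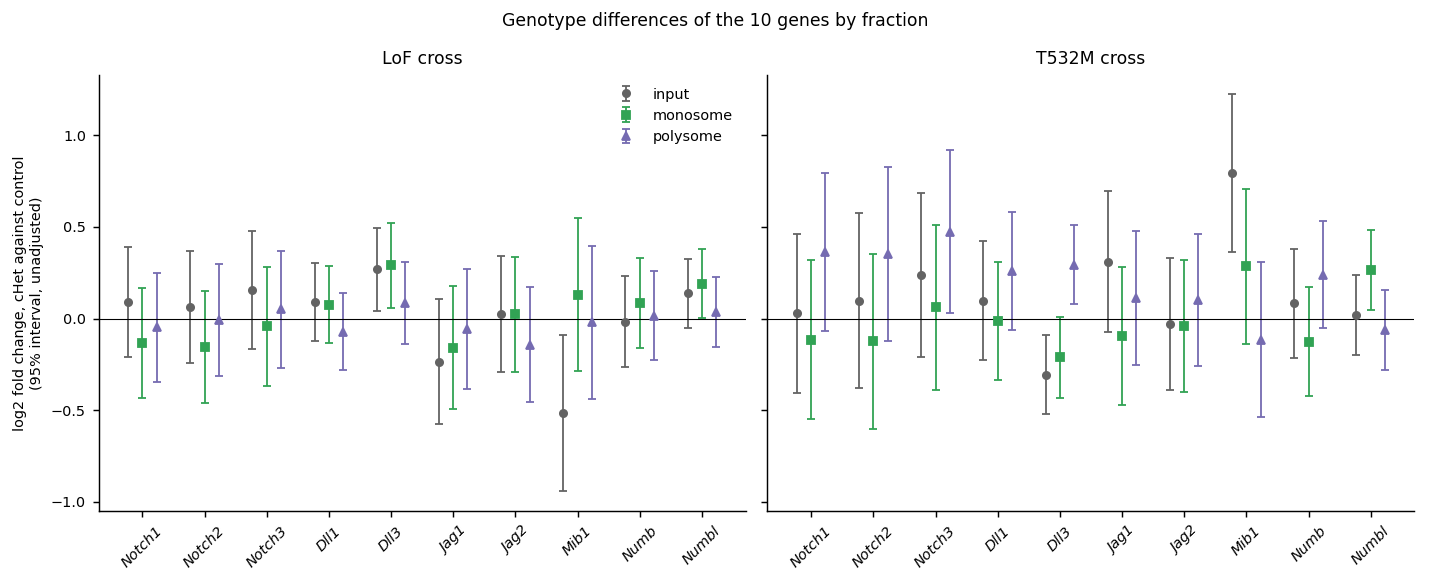
Log2 fold change of cHet against control for each gene by fraction, in the LoF cross (left) and the T532M cross (right), with unadjusted 95% intervals (1.96 SE). Most intervals include 0. Dll3 and Mib1 in input have opposite signs in the 2 crosses, and none of the points passed the adjusted threshold.

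Dll3 was the member whose values separated the genotypes in most comparisons, all except LoF input. In LoF input Dll3 had 11, 15.7 and 14.3 CPM in controls and 17.1, 14.9 and 17.4 in cHet pools, which overlap. Its log2 difference was 0.27 ± 0.11 (adjusted p = 0.388), 0.13 without control pool 1 and 0.05 without the pools with most Ttr. In LoF monosomes it had 7.70, 8.41 and 7.91 CPM in controls and 10.2, 9.51 and 9.66 in cHet pools, a difference of 0.29 ± 0.12 (adjusted p = 1). Leaving out the Ttr-rich pools gave 0.19. All 3 cHet libraries lay above the controls there, as they did in LoF polysomes (28.8 to 31.5 against 27.5 to 28.4 CPM), where the difference was 0.08.

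In the T532M cross Dll3 was lower in cHet input and higher in cHet polysomes, without overlap in either. Dll3 had 16.8, 17.9 and 18.3 CPM in control input and 12.5, 15.1 and 15.3 in cHet input, a difference of -0.31 ± 0.11 (adjusted p = 0.358). Without the Ttr-rich cHet pool 1 the input difference was -0.22 (edgeR adjusted p = 0.738). In polysomes Dll3 had 30.5, 34.2 and 28.7 CPM in controls and 36.7, 38.3 and 39.5 in cHet pools, a difference of 0.29 ± 0.11 (adjusted p = 0.55). In monosomes the cHet values of 7.02, 8.92 and 8.82 CPM lay below the control values of 9.22 to 10.1.

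For Mib1, input was the only fraction where the unadjusted p was under 0.05 in either cross. In LoF input Mib1 had 45.3, 26.4 and 30.1 CPM in controls and 14.4, 29.5 and 27.3 in cHet pools, a difference of -0.52 ± 0.22 (adjusted p = 0.374). The groups overlap, and the difference was -0.23 without cHet pool 1 and -0.25 without control pool 1. Without the 3 LoF pools with most choroid plexus Ttr RNA (control pools 1 and 3 and cHet pool 1), which leaves 1 control, it was 0.12.

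In T532M input Mib1 had 15.2, 35.3 and 25.5 CPM in controls and 56.5, 41.5 and 33.5 in cHet pools, a difference of 0.79 ± 0.22 (adjusted p = 0.26). The groups overlap. The difference was 0.54 without control pool 1 (adjusted p = 0.94), 0.57 without the Ttr-rich cHet pool 1 (adjusted p = 0.707) and 1.11 without control pool 2 (adjusted p = 0.0215), the only pool whose loss gave a call. With no filter on low counts Mib1 was called in both crosses (edgeR adjusted p = 0.0206 and 0.0136). In LoF input that setting called 28 genes higher and 939 lower of 31690, against 0 with the filter. In T532M monosomes Mib1 had 162, 165 and 166 CPM in controls and 189, 207 and 206 in cHet pools, which did not overlap, a difference of 0.29 ± 0.22 (adjusted p = 0.655).

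Choroid plexus and hem markers varied between input pools, with sums that overlap between genotypes in both crosses. All 12 had lower mean estimates in LoF cHet input and higher ones in T532M cHet input, with 0 called. Their sums ran from 39.9 to 232 CPM in LoF control and 15.6 to 74.7 in LoF cHet input, and from 19.4 to 19.6 in T532M control and 12.2 to 268 in T532M cHet input. By pool, the T532M cHet input sums were 268.5, 36.26 and 12.17 CPM, so pool 3 lay below the T532M controls. The part of these markers in Dll3 and Mib1 was not tested beyond leaving out the pools with most Ttr.

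Cortical neuron markers had lower sums in the T532M cHet pools, without overlap in input (2180 to 2340 CPM against 2380 to 3100 in controls) and in monosomes (2050 to 2120 against 2190 to 2840). Of the 7 markers tested, 6 had lower estimates in each of these fractions and 0 were called. Radial glia markers also had lower sums in T532M cHet monosomes, without overlap (942 to 974 CPM against 1060 to 1120 in controls). In input their sums overlapped (1500 to 1670 against 1520 to 1690). The part of both marker lists in the T532M values of Dll3, Mib1 and Numbl was not tested.

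Input values of other genes of like span are set beside those of Mib1. Its lowest input libraries were cHet pool 1 of the LoF cross and control pool 1 of the T532M cross. They lay at -0.93 and -1.07 log2 units from the input mean of their cross. In the same libraries the median deviation of genes spanning 30 to 100 kb was -0.16 and -0.13, and that of genes under 10 kb was 0.13 and 0.15. Its highest input libraries were cHet pool 1 of the T532M cross (0.82) and control pool 1 of the LoF cross (0.73). There the 30 to 100 kb median was 0.02 and 0.07. Between genotypes, the 30 to 100 kb genes had a median difference of -0.07 in LoF input and 0.08 in T532M input, and genes under 10 kb of 0.07 and -0.10. The part of these shifts in Mib1 was not tested.

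**Figure D5:**
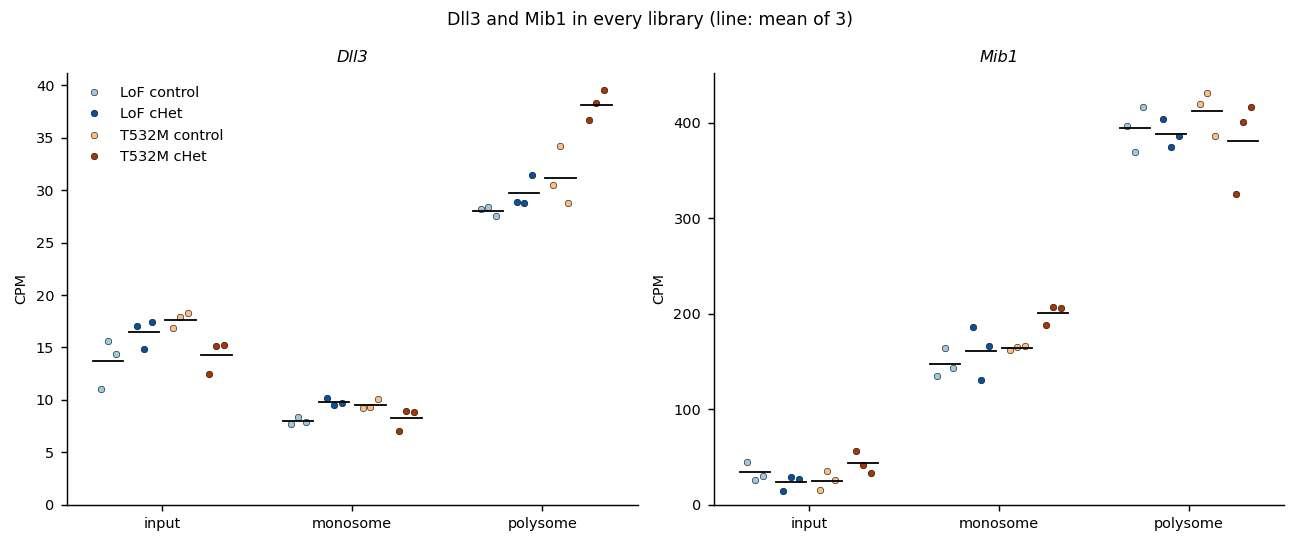
Dll3 (left) and Mib1 (right) in CPM in every library by fraction, with lines at the mean of 3. T532M cHet points of Dll3 lie below controls in input and above them in polysomes. Mib1 input points spread from 14.4 to 56.5 CPM and overlap between genotypes in both crosses.

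The 3 receptors showed no called difference. In T532M polysomes Notch3 had 257, 348 and 186 CPM in controls and 323, 436 and 340 in cHet pools, a difference of 0.47 ± 0.23 (adjusted p = 0.628), with overlapping values. Notch1 was at 0.36 ± 0.22 and Notch2 at 0.35 ± 0.24 in the same comparison. Same-numbered libraries of this comparison deviated together. In each of the 3 pairs the cHet library was above the control library for Notch1, Notch2 and Notch3. The same held for Dll1, Dll3, Jag1 and Jag2, but not for Mib1, Numb and Numbl. The share of all genes with this direction was not computed. With the replicate number as a block the edgeR adjusted p was 0.576 (Notch1), 0.605 (Notch2) and 0.397 (Notch3), so no receptor was called. The receptors deviated together between libraries. In log2 units from the mean of the T532M polysome libraries, control pool 3 was lowest (Notch1 -0.75, Notch2 -0.84 and Notch3 -0.71). In the same units cHet pool 2 was highest (0.60, 0.67 and 0.52). In those polysome libraries the 472 genes with coding regions of 5000 bases or more had a median deviation of -0.37 and 0.29, and their part in the receptors was not tested. Cortical neuron markers in the same fraction summed to 5250 to 7850 CPM in controls and 4230 to 5790 in cHet pools, and radial glia markers to 5720 to 7730 and 6790 to 8520, with 0 called in either list and a part in the receptors that was not tested. In the LoF cross receptor differences lay between -0.15 and 0.16 in all 3 fractions.

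Jag1 in LoF input had 11.4, 12 and 12.1 CPM in controls and 8.97, 11.1 and 10 in cHet pools, which did not overlap. The difference was -0.23 ± 0.17 (adjusted p = 0.78). Without the pools with most Ttr RNA, Jag1 was called in LoF monosomes (-0.59, adjusted p = 0.0245), where 1 control was left, against -0.16 with all pools. Numbl in T532M monosomes had 35.1, 31.7 and 34.4 CPM in controls and 37.3, 43.4 and 41.1 in cHet pools, a difference of 0.27 ± 0.11 (adjusted p = 0.356). In T532M polysomes the Numbl difference was -0.06. Numbl in LoF monosomes ran from 31.7 to 33.6 CPM in controls and from 35.3 to 38.6 in cHet pools, also without overlap and not called. Dll1, Jag2 and Numb had no unadjusted p under 0.05 in any genotype comparison within a fraction, with differences from -0.14 to 0.26.

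The third comparison asked whether the genotype effect in polysomes differed from that in input or in monosomes. None of the 10 was called, by edgeR or DESeq2, and over all genes 0.0108% (LoF, over input), 0% (LoF, over monosomes), 0% (T532M, over input) and 0.0603% (T532M, over monosomes) were called. Unadjusted p was under 0.05 for 0 members in both LoF comparisons (over input 6.87% and over monosomes 3.02% of all genes). In the T532M cross it was under 0.05 for 2 over input and for 1 over monosomes (6.1% and 6.85% of all genes). The T532M change of Dll3 was 0.60 ± 0.16 over input (adjusted p = 0.793) and 0.51 ± 0.16 over monosomes (adjusted p = 0.444). The T532M change of Mib1 over input was -0.91 ± 0.31 (adjusted p = 0.793), and -0.58 without cHet pool 1.

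In the authors' deposited table for the T532M cross, the log2 fold change of Dll3 was -0.33 in input (adjusted p = 0.175). Its polysome column, which holds the fold relative to that in input, gave 0.65 for Dll3 (adjusted p = 0.336). For Mib1 in input the authors' deposited table gave 0.76 (adjusted p = 0.0707).

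The fourth comparison asked whether the LoF effect differed from the T532M effect. The fit of all 36 libraries called none of the 10 in input, monosomes or polysomes, while 0.0105%, 0% and 0% of all genes were called. Unadjusted p was under 0.05 for 3 members in input, 1 in monosomes and 0 in polysomes, against 15.9%, 6.69% and 5.59% of all genes. DESeq2 called 2 in input (Dll3 and Mib1), 0 in monosomes and 0 in polysomes. The shares of all genes given here are those of edgeR. In LoF input DESeq2 called 18 genes higher and 74 lower of 18556, where edgeR called 0, so its counts need another background.

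In input the LoF effect minus the T532M effect was -1.32 ± 0.33 for Mib1 (adjusted p = 0.0601), 0.55 ± 0.16 for Dll3 (adjusted p = 0.0762) and -0.56 ± 0.28 for Jag1 (adjusted p = 0.312). Over the alternatives the adjusted p ranged from 0.000338 to 1 for Mib1 and from 0.0195 to 1 for Dll3. Mib1 and Dll3 were both called without LoF cHet pool 2, LoF control pool 2, T532M cHet pool 3 or T532M control pool 2. Without the 4 pools with most Ttr RNA the values were -0.45 for Mib1 and 0.27 for Dll3. In monosomes the difference for Dll3 was 0.50 ± 0.16 (adjusted p = 0.476). The 2 controls differ in Cre and in the lox-flanked allele, so cross and control genotype cannot be told apart.

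None of the other 46 pathway genes was called by edgeR in a genotype comparison or cross difference. DESeq2 called 1 in T532M monosomes (Furin, a protease of receptor maturation) and 1 in the cross difference in input (Kat2b), both named after their values were seen, and 0 in the other comparisons. The unadjusted edgeR p was under 0.05 for 6, 3 and 0 of them in LoF input, monosomes and polysomes, and for 3, 5 and 2 in the T532M cross. It was under 0.05 for 2 over input and 2 over monosomes in LoF polysomes, for 3 and 3 in T532M polysomes, and for 8, 4 and 2 in the cross differences. Beside the shares of all genes given above (10.8% in LoF input and 11.8% in T532M monosomes, for example), these counts of 46 are near the background or below it in most comparisons. The median difference lay between -0.04 and 0.03 in these 6 comparisons.

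Across all 36 libraries, the log2 CPM of Notch1 was most like that of Pfas (Pearson r = 0.995), Fam193a (0.992) and Ep400 (0.992) among 9636 candidate genes of at least 10 CPM on average. Dll1 was most like Lbr (0.99), Fanca (0.99) and Wdr90 (0.989). These values describe likeness over libraries that share fractions and pools.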

How the data were processed

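The members, gene lists and tests were chosen with earlier results of these data known. Per the file headers, the authors counted read pairs with featureCounts 2.0.3 over whole gene spans on the reverse strand (setting 2), with GENCODE M25 of GRCm38. The deposited counts are not normalized. STAR 2.7.11a, DESeq2 1.34.0, FastQC 0.11.7 and Subread 2.0.3 were used per the submitters' processing notes. The authors' deposited tables hold log2 fold changes, p-values and a normalized signal, the count divided by 1 factor per library. Checked against that signal, their monosome and polysome columns are folds relative to the input fold.

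Counts were tested with edgeR 4.0.16 in R 4.3.3 (quasi-likelihood F test, TMM scaling, filterByExpr, Benjamini-Hochberg adjustment over all genes, adjusted p under 0.05), with 1 term for each of 6 groups over the 18 libraries of a cross. The filter left 18556 (LoF), 18243 (T532M) and 19121 (both crosses) genes. DESeq2 1.42.0, RLE scaling, library totals alone, no filter, fits of the compared groups, a replicate block and leaving out each pool were alternatives. Leaving out the pools with most Ttr (at least 30 CPM in input) was added after seeing the data. Intervals are 1.96 SE. The fit was also run on simulated counts of the LoF cross, with known changes in cHet input only. These held no fraction or pool differences, so the run does not test the fraction comparisons or shared pools. All members are named. Pathway genes are named where called by genotype, or in fractions as up to 4 a list with the largest change. Nearest patterns are the 3 genes with the highest correlation to Notch1 and to Dll1. Numbers were taken to pair libraries where all 3 correlations of deviations from group means were over 0.1. For cHet against control this held in T532M monosomes (0.288 to 0.315) and polysomes (0.168 to 0.556) and not in T532M input or the LoF cross. This comes from the data, as the labels state no shared litter or day.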

Additional observations from a re-analysis of the deposited data

How the results depend on the processing

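In the fraction comparisons, 456 of 460 recomputed values of single members outside the library-totals setting kept their direction and side of the threshold, and the other 4 were the losses of Numbl given above. With library totals alone, 31 of 40 did. There 5 reversed: Dll3 (-0.11) and Jag2 (-0.14) in T532M polysomes against input, Jag2 (-0.20) in T532M polysomes against monosomes, and Numbl in LoF (-0.42) and T532M (-0.70) polysomes against monosomes. That setting leaves out the scaling factor, and the share of higher calls against input then fell from 46% to 29.4% (LoF) and from 46.3% to 29.2% (T532M). Without the pools with most Ttr, Mib1 in LoF input reversed to 0.12, with 1 control left. Without the low-count filter, 28 genes were called higher and 939 lower of 31690 in LoF input. The number of members called there, and in T532M input, moved from 0 to 1 (Mib1 in both). For the LoF minus T532M difference in input it moved from 0 to 2 with DESeq2, to 1 with library totals alone and to 1 without the filter. Leaving out each pool gave 0 to 2 there, and 0 to 1 in T532M input. The causes were not tested. Of 116 results with neither a call nor an unadjusted p under 0.05, 1 was called in 1621 recomputations and 142 recomputations changed sign.

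Whether same-numbered libraries paired differed by comparison. Of the LoF pairs, 10 of 18 between fractions and 1 of 9 between control and cHet had a correlation over 0.1, and of the T532M pairs 17 of 18 and 7 of 9. The libraries correlated best with their own number in 9 and 14 of the 18, and in 1 and 6 of the 9. With the replicate block, 10 members were called in each fraction comparison and 0 in each genotype comparison, as without it, and it changed no call of a member.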
